A study of Homo sapiens with 2 samples.

Results

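Human chromosomes 4, 13 and 18 carried 1054 of the 20085 peaks in the deposited list of PML-RARA antibody signal in NB4 cells. The members are all rows of the list on these chromosomes, with no filter, and number 547 on chromosome 4, 305 on chromosome 13 and 202 on chromosome 18. NB4 is an established human acute promyelocytic leukemia line that carries the PML-RARA fusion, here with treatment given as NA. It was profiled by CUT&Tag, in which an antibody brings a transposase to chromatin so that adapters are inserted beside the bound protein. The 2 replicates form 1 group, and the authors deposited 1 peak list named as merged, so a peak has no value per replicate and no spread between replicates can be given. No control antibody, input library or sequencing depth was used here, and every comparison below is a description within this list, without a test.

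PML-RARA joins the nuclear body protein PML to the retinoic acid receptor alpha, and blocks the maturation of promyelocytes. It binds DNA, together with the retinoid X receptor, at pairs of short hormone response half-sites. Gene-poor chromosomes tend to lie near the nuclear edge and to hold long, dark-staining stretches of late-replicating chromatin with few genes, while their gene-rich parts often sit in pale bands near the ends.

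Of the genes on these chromosomes, 32 had an hg19 transcription start site (TSS) in gene models at hand, and 12 of them had a peak within 2 kb of it. The promoters below are examples of CpG content, chosen after their values were seen. They come from RefSeq on GRCh38.p14, matched by symbol, and run from 250 bases before to 50 after the gene's start, 5′ to 3′, with each CpG in capitals. The promoter coordinates are of GRCh38.p14, and those of peaks are of hg19. DLEU1, a long noncoding RNA gene (chr13:50081919-50082218 on the plus strand), and SLC39A8, which encodes a zinc and manganese transporter (chr4:102345204-102345503 on the minus strand), had a peak over the start in the hg19 models. IL21, a lymphocyte cytokine gene (chr4:122621017-122621316 on the minus strand), and SERPINB4, the gene of a protease inhibitor of squamous epithelium (chr18:63644207-63644506 on the minus strand), had none.
DLEU1: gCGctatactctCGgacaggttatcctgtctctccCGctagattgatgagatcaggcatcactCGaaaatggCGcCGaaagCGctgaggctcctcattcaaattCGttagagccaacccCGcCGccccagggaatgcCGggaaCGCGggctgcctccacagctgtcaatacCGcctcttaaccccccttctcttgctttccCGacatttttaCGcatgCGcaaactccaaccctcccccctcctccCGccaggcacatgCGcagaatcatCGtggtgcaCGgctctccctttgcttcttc
SLC39A8: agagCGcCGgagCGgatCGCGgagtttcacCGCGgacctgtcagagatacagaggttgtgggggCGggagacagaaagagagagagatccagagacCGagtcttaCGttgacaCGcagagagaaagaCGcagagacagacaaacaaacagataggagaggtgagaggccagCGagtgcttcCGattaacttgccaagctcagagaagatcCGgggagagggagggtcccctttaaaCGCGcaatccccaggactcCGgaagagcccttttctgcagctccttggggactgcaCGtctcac
IL21: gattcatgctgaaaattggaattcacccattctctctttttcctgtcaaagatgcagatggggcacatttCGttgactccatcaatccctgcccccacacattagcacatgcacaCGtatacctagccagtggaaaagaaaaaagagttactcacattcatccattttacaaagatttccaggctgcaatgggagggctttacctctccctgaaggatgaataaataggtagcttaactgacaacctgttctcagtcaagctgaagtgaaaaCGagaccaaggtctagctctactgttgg
SERPINB4: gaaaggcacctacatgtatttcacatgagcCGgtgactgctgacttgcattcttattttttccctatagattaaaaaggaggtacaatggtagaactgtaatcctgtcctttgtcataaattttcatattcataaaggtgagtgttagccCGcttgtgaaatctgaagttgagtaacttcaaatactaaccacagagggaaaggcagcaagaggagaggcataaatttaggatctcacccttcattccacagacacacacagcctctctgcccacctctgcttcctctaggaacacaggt

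The first pair held 21 and 19 CpGs and the second pair 3 and 2. The second pair is among the poorest in CpG: over all matched genes the promoters held 19 to 51 CpGs in those with a TSS peak and 2 to 48 in those without, so the numbers overlapped widely. Promoters were matched for 9 of the 12 genes with a TSS peak and for 15 of the 20 without. A gene has 1 window here, matched by symbol and not by position, so it can belong to another start than the one tested. This was so for ANK2 and DOCK9, whose spacing to neighbouring genes differed between the builds. DOCK9 had the highest values of those without a TSS peak, 48 CpGs and a GC share of 82.3%. NFATC1 came next with 43 and 79.7%. The ratio of observed to expected CpG had a median of 0.992 in the 9 with a peak, 0.824 in the 15 without and 0.579 over all 35116 RefSeq promoters. The median GC share was 66.7% (57.0 to 77.3%), 60.3% (42.3 to 82.3%) and 58.7% in the same order, and the ranges overlapped widely here too. These windows were also searched on both strands for hormone response half-sites, 4 motifs of which no pair can match the same letters. Over all RefSeq promoters AGGTCA occurred in 13.8%, AGTTCA in 10.4%, GGGTCA in 14.1% and GGTTCA in 8.62%. At least 1 of them occurred in 1 of the 9 promoters with a TSS peak, in 2 of the 15 without and in 38.6% of all promoters. The match among genes with a peak was GGGTCA in the promoter of C4orf46, at base 79 of the window. A match is only a match of letters in a window of 300 bases.

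Peaks were sparse on all 3 chromosomes. Chromosome 4 had 2.86 peaks per Mb, chromosome 13 had 2.65 and chromosome 18 had 2.59, which ranked the 4th, the 3rd and the 2nd lowest of 23 chromosomes (1 to 22 and X). The other 20 ranged from 2.44 on chromosome X to 27.04 on chromosome 19, with a median of 6.96. The lengths include unassembled sequence, such as the short arm of chromosome 13. Without centromeric, variable and stalk bands the values were 2.91, 3.19 and 2.69, which were still among the 4 lowest of the 23, with the order of chromosomes 4 and 13 reversed. The 3 chromosomes made up 12.7% of the length, 5.25% of the peaks and 4.32% of the summed signal. The gene-poor label held in the RefSeq gene table, in which chromosome 13 had 2.96 protein-coding genes per Mb, chromosome 18 had 3.36 and chromosome 4 had 4.05. These were the 3 lowest values of the 23, below chromosome 8 at 4.93.

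Set against their genes, the chromosomes fell in different places. Chromosome 4 had 0.710 peaks per protein-coding gene, the second lowest value after chromosome X at 0.447. Chromosome 18 had 0.748 and chromosome 13 had 0.902, against a median of 1.10 over the other 20 chromosomes and a highest value of 1.59 on chromosome 20. Chromosome 13 therefore carried the fewest genes per Mb of all and ranked the 9th lowest in peaks per gene.

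**Figure D1:**
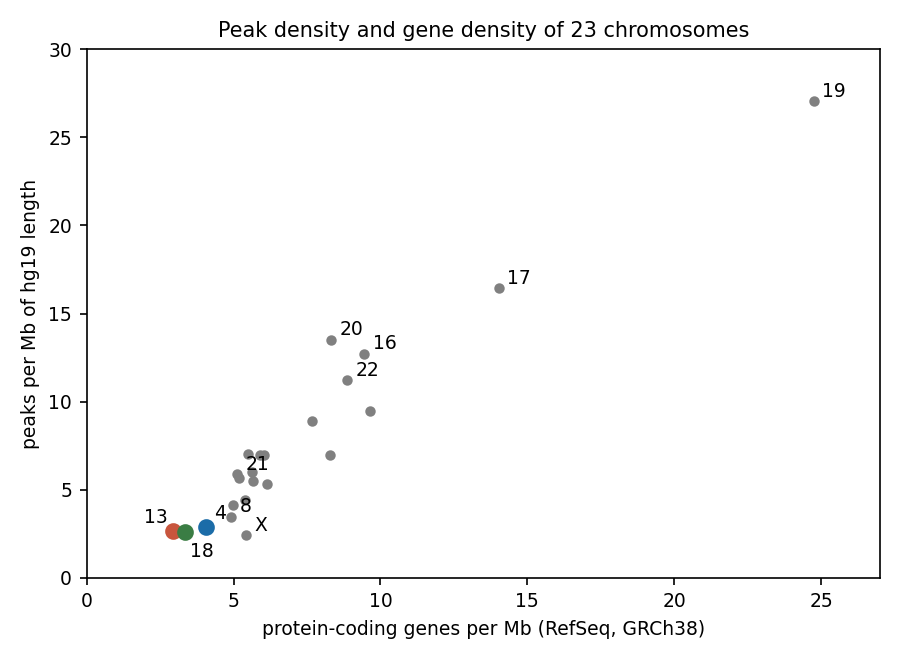
Each point is 1 of 23 chromosomes, with protein-coding genes per Mb (RefSeq, GRCh38) on the x axis and peaks per Mb of hg19 length on the y axis. Chromosomes 4, 13 and 18, in colour, sit at the left edge between 2.59 and 2.86 peaks per Mb, and chromosome X has fewer peaks per Mb with more genes.

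On each chromosome the band with most peaks lay at an end, though most peaks lay outside it. Outside it were 320 peaks on chromosome 4, 219 on chromosome 13 and 154 on chromosome 18. Band 4p16.3, at the tip of the short arm, is 4.50 Mb long and held 227 of the 547 peaks of chromosome 4 (41.5%) and 50.5% of its signal, on 2.35% of its length. Band 13q34, at the tip of the long arm, held 86 of 305 peaks (28.2%) and 38.05% of the signal on 4.23% of the length. Band 18q23, likewise terminal, held 48 of 202 peaks (23.8%) and 36.0% of the signal on 6.37% of the length. At the opposite ends, 4q35.2 had 1 peak (0.247 per Mb) and 18p11.32 had 13 (4.48 per Mb). Below, the terminal bands are 4p16.3, 13q34 and 18q23 only. These are cytogenetic bands of hg19, and a peak belongs to the band of its midpoint.

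The step between the terminal band and the rest was steepest on chromosome 4. 4p16.3 had 50.4 peaks per Mb, rank 9 of 784 bands in the genome, against 1.71 per Mb on the rest of chromosome 4, a ratio of 29.4. For 13q34 the values were 17.7 and 1.99 (ratio 8.89), and for 18q23 they were 9.64 and 2.11 (ratio 4.58). The rest was uneven: 4p16.1 had 10.2 peaks per Mb, 13q14.13 had 12.7 and 18p11.22 had 8.33. The same ratio, taken for the band with most peaks on each of the other 20 chromosomes, ran from 2.46 to 12.01 with a median of 4.94. Without its densest band, chromosome 4 had the lowest peak density of the 23 chromosomes.

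The terminal bands took a larger share of the peaks than of the genes. 4p16.3 holds 10.0% of the protein-coding genes of its chromosome, 13q34 holds 12.4% and 18q23 holds 7.41%. In genes per Mb 4p16.3 (17.1) and 13q34 (8.62) lay well above their chromosomes, while 18q23 had 4.02, below several other bands of chromosome 18 such as 18q21.33 with 6.92. Peaks per protein-coding gene were 2.95 in 4p16.3 against 0.462 on the rest of chromosome 4, 2.05 against 0.740 for 13q34, and 2.40 against 0.616 for 18q23. Genes were placed in GRCh38 bands of the same name, and the lengths of these 3 bands differ between the builds by at most 10%.

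**Figure D2:**
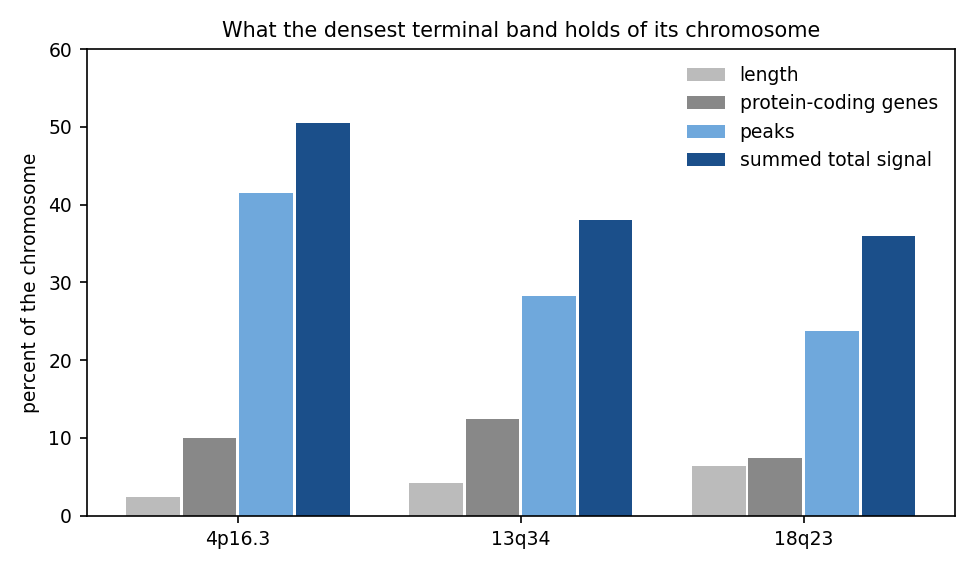
Bars give, for 4p16.3, 13q34 and 18q23, the percent of the chromosome's length, protein-coding genes, peaks and summed total signal that lie in the band. In each band the share of peaks exceeds the share of genes, and the share of signal exceeds the share of peaks, up to 50.5% in 4p16.3. The bands were chosen for holding most peaks, which favours a high share of peaks.

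Counted in 1 Mb bins, most of each chromosome held few peaks or none. Bins that overlap a centromeric, variable or stalk band were left out, which left 187 bins on chromosome 4, 96 on chromosome 13 and 75 on chromosome 18. No peak lay in 106 bins of chromosome 4 (56.7%), 43 of chromosome 13 (44.8%) and 38 of chromosome 18 (50.7%). Among the other 20 chromosomes the share ran from 0% on chromosome 19 to 57.6% on chromosome X, with a median of 33.9%. The 6 fullest bins of chromosome 4 held at least 50% of the peaks in its bins, as did the 9 fullest of chromosome 13 and the 6 fullest of chromosome 18.

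The fullest bins of chromosome 4 were the first 4 from the short-arm end, with 42, 83, 63 and 39 peaks. The third of them held the most signal, 20.5% of the chromosome's total. On chromosome 13 the fullest was the bin that starts at 114 Mb, with 43 peaks and 20.2% of the signal, followed by those at 111 Mb with 16 and, with 15 each, at 30, 31 and 110 Mb. On chromosome 18 the bins at 74 and 77 Mb, both in 18q23, had 24 and 23 peaks, and the bin at 9 Mb in 18p11.22 had 19. The band 18p11.22 holds RAB31, a GTPase of vesicle traffic, and NDUFV2, a subunit of respiratory complex I.

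**Figure D3:**
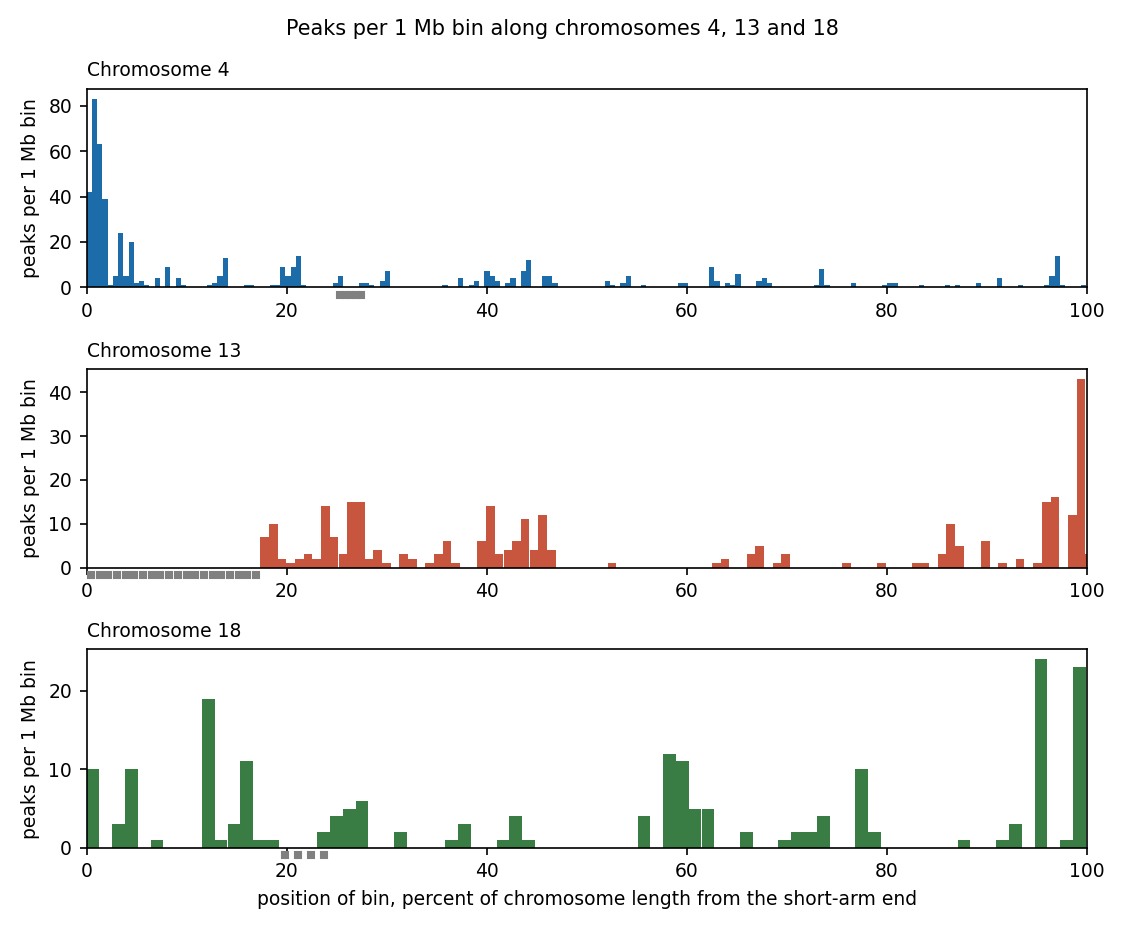
Bars give the number of peaks per 1 Mb bin along each chromosome, with position as percent of chromosome length from the short-arm end, and grey squares mark bins left out for centromeric, variable or stalk bands. Chromosome 4 is dominated by its first bins, with up to 83 peaks. Chromosome 13 has its highest bar, of 43, in a last group, and chromosome 18 has several groups of at most 24.

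The strongest sites are ranked by total signal, read here as coverage summed over a peak, with the maximum signal read as its height. On chromosome 4 the first was at chr4:2413528-2416596 in 4p16.3, 3068 bp long, with a total of 181121 and a maximum of 414. It ranked 73 in the whole list, and was the highest of the chromosome also by maximum and by signal per base (59.0). The next 4 lay side by side in the same band, between 2787843 and 2840245, with totals of 144799, 143471, 110882 and 96506. They were lower and broader, 6599 to 7803 bp long with maxima of 88 to 198. Outside 4p16.3 the highest were chr4:6689743-6696652 in 4p16.1 (total 81145), chr4:185731651-185735436 in 4q35.1 (76132) and chr4:37761601-37763415 in 4p14 (69255), the last with a maximum of 249, the second highest of the chromosome.

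Several listed genes of signalling and chromatin lie in 4p16.3. They are SH3BP2, an adaptor of immune receptor signalling, FGFR3, a receptor tyrosine kinase, NSD2, a histone methyltransferase, and RNF4, a ubiquitin ligase that recognises SUMO chains, as on PML. The band also holds ADD1, a protein of the membrane skeleton, and HTT, the gene of huntingtin. Shared band is the only link made here, and no distance from a peak to these genes was measured.

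Chromosome 13 had 1 site far above the others. The peak at chr13:114829619-114832833 in 13q34 had a total of 182581 and a maximum of 409, rank 72 in the list and 5.50% of the chromosome's signal. The second, chr13:111364417-111366297, had 64715, the third, chr13:115046043-115048301, had 64288, and both lay in 13q34. The fourth lay elsewhere, at chr13:31310771-31315036 in 13q12.3, with a total of 57954 over 4265 bp and a maximum of 65. It began 75873 bp after the end of USPL1, a SUMO-specific peptidase gene, and the next protein-coding gene after USPL1 in RefSeq order is ALOX5AP, which encodes the helper protein of 5-lipoxygenase in leukotriene synthesis. Band 13q34 holds RASA3, a GTPase-activating protein for Ras and Rap, IRS2, an adaptor of the insulin receptor, LAMP1, a lysosomal membrane protein, TFDP1, a partner of E2F factors, and the coagulation genes F7 and F10.

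Chromosome 18 had lower sites, led by neighbours in 18q23. The first was chr18:74810203-74814446, with a total of 118878 and a maximum of 185, rank 185 in the list. The second, chr18:74764631-74769607, had 83828, and the third, chr18:74824514-74827601, had 83700. The fourth, chr18:43266419-43268552 in 18q12.3, had 83319, and was 1 of 2 peaks in a band of 6.30 Mb. That band holds SETBP1, a DNA-binding protein gene mutated in myeloid neoplasms. SETBP1 was placed by band only, and all of 18q12.3 up to 43250243 lay in a stretch without a peak. The fifth, chr18:60765808-60768327 in 18q21.33, had 49961, in the band of the survival gene BCL2 and of PHLPP1, a phosphatase that acts on AKT. Also listed in that band are TNFRSF11A, VPS4B, SERPINB2, SERPINB3, SERPINB4 and SERPINB13. 18q23 holds NFATC1 and ZNF516, which encode transcription factors, and MBP, the gene of myelin basic protein. Here and for chromosome 13, genes named as held by a band are linked to its peaks by shared band alone.

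The top of each chromosome weighed differently. The 10 strongest peaks held 15.9% of the signal on chromosome 4, 20.3% on chromosome 13 and 28.2% on chromosome 18. A fixed 10 peaks weigh more where there are fewer in all, and the 3 highest shares of the 23 chromosomes belonged to the 3 with the fewest peaks: 18 (202 peaks), 13 (305) and 21 (284). Their totals spanned 68523 to 181121, 46686 to 182581 and 27092 to 118878. Of the 30 sites, 19 lay in the 3 terminal bands, 7 on chromosome 4, 7 on chromosome 13 and 5 on chromosome 18.

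**Figure D4:**
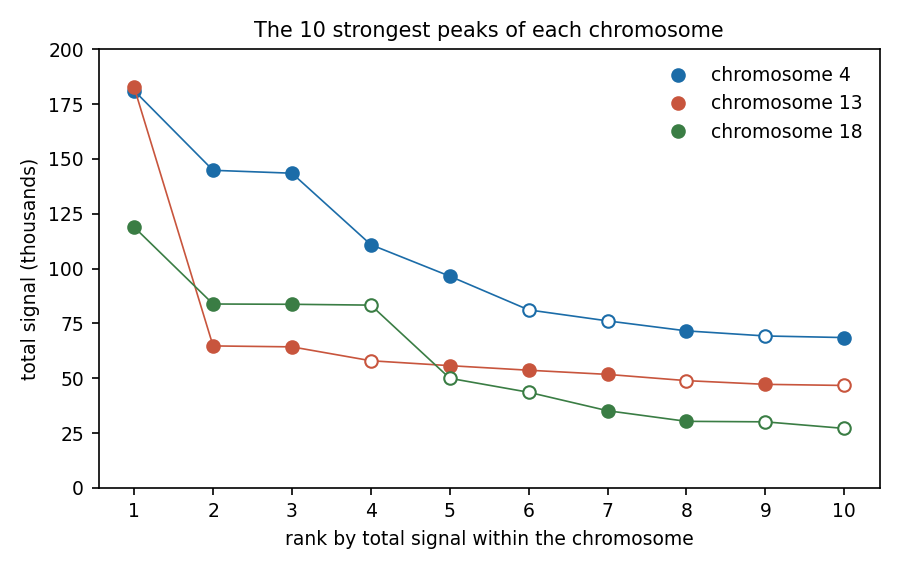
Points give the total signal of the 10 strongest peaks of each chromosome by rank, filled where the peak lies in 4p16.3, 13q34 or 18q23 and open elsewhere. Chromosome 13 drops from 182581 to 64715 after its first peak, while chromosome 4 falls step by step.

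A run joins peaks with gaps of at most 10 kb. On chromosome 4, 301 of 547 peaks lay in a run (55.0%, 95% exact binomial interval 50.7 to 59.3%), on chromosome 13 123 of 305 (40.3%, 34.8 to 46.1%) and on chromosome 18 87 of 202 (43.1%, 36.1 to 50.2%). The intervals cover counting error only, and peaks of a run are not independent. Chromosomes 13 and 18 had the lowest and second lowest shares of the 23, and chromosome 4 the 7th lowest. The other 20 ranged from 51.5% on chromosome X to 74.0% on chromosome 19, with a median of 61.6%.

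Peaks lay in runs more often in 4p16.3, 13q34 and 18q23 than on the rest of each chromosome. In 4p16.3, 195 of 227 peaks lay in runs (85.9%), in 13q34 60 of 86 (69.8%) and in 18q23 34 of 48 (70.8%). On the rest of the chromosomes the shares were 33.1%, 28.8% and 34.4%. In numbers, the rest held 106 of the peaks in runs on chromosome 4, 63 on chromosome 13 and 53 on chromosome 18, so most of them lay in the terminal band on chromosome 4 and outside it on the other pair. These were the 3 lowest of the 23 chromosomes when each was taken without its densest band, where the other 20 ranged from 45.3% to 70.9%. Peak density and the share in runs are linked by construction, since peaks that are closer together are joined more often.

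The largest runs of chromosome 4 all lay in 4p16.3. They held 25 peaks between 980370 and 1051457 (summed signal 213113), 20 between 1745829 and 1813145 (281446) and 18 between 1160180 and 1224180 (211203). By signal the first was a run of 10 peaks between 2787843 and 2845713, with 598697 in all, in which peaks covered 70.0% of 57.9 kb. This run contains the second to the fifth strongest peaks of the chromosome. Of 31 runs with at least 3 peaks, 21 lay in 4p16.3 and 5 in 4p16.1.

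On chromosome 13 the largest run joined 12 peaks between 114808220 and 114834449 (summed signal 285967), the strongest of the chromosome among them. The next had 10 peaks between 114872677 and 114906677 (128818) and 7 between 111155150 and 111189051 (90111), again in 13q34. Outside that band the largest was in 13q14.13, the band of LCP1, which encodes the leukocyte actin-bundling protein plastin, with 5 peaks between 46742442 and 46758955 and a low sum of 21224. On chromosome 18 the largest runs were in 18q23, with 10 peaks between 74810203 and 74845565 (271754), 6 between 74764631 and 74780056 (139934) and 5 between 77326425 and 77338172 (43994).

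**Figure D5:**
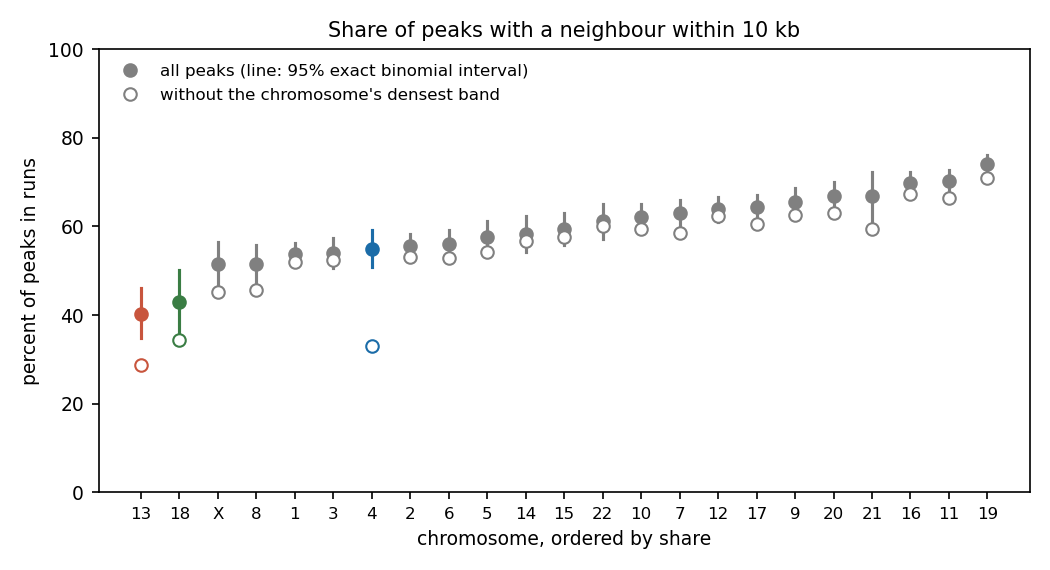
For each of 23 chromosomes, filled points give the percent of peaks in runs with the 95% exact binomial interval as a line, and open points the percent without the band that holds most peaks. Chromosome 4 falls from 55.0% to 33.1% when 4p16.3 is left out, and its open point then lies beside those of chromosomes 13 and 18.

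Peaks outside runs were often far from any other. Outside runs lay 246 peaks on chromosome 4, 182 on chromosome 13 and 115 on chromosome 18. No neighbour within 100 kb was found for 77, 50 and 41 peaks, or 14.1%, 16.4% and 20.3% of all peaks of the chromosome. Chromosomes 18 and 13 had the highest and second highest shares of the 23, and the other 20 had a median of 8.16%. The median distance to the nearest peak was 6.09 kb, 17.7 kb and 16.8 kb on chromosomes 4, 13 and 18, against a median of 4.89 kb over the others.

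The longest stretch without a peak was 10.4 Mb on chromosome 4, 11.5 Mb on chromosome 13 and 8.84 Mb on chromosome 18. Stretches that hold a centromere or reach a chromosome end were left out. The longest of the other 20 chromosomes ran from 1.04 Mb on chromosome 19 to 18.5 Mb on chromosome X, with a median of 7.24 Mb. Stretches over 1 Mb made up 75.2% of chromosome 4, the highest share of the 23, 68.5% of chromosome 18 and 54.3% of chromosome 13, against a median of 44.9% over the others.

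On chromosome 4 the longest ran from 57977381 to 68410967, across 4q13.1, and was followed by 89378621 to 99181977 (9.80 Mb, 4q22.1 to 4q23) and 130544851 to 139936478 (9.39 Mb, across 4q28.3). In these 3 the share in the darkest Giemsa classes (gpos75 and gpos100) was 68.0%, 81.8% and 89.4%. The fourth, 106395369 to 113066279 (6.67 Mb, 4q24 to 4q25), held none of those classes. LEF1, a transcription factor of lymphoid precursors, and RPL34, a ribosomal protein gene, are placed in 4q25, which had 2 peaks in all. Chromosome 4 had 9 stretches over 5 Mb, chromosome 13 had 3 and chromosome 18 had 2.

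On chromosome 13 the longest stretches were neighbours. From 53227160 to 60970340 (7.74 Mb) no peak was listed, then came 1 peak in 13q21.2 with a total of 7189, and then none from 60971186 to 72439132. Further along, 13q31.3, a band of 5.00 Mb that holds MIR17HG, the host gene of a microRNA cluster with roles in cell growth, had a single peak at chr13:91999565-92000313 with a total of 3056. It was flanked by empty stretches of 4.22 Mb and 3.20 Mb. On chromosome 18 the longest ran from 34409310 to 43250243, in 18q12.2 and 18q12.3, and ended at the weaker of the 2 peaks of 18q12.3, with a total of 6530. The next, 61090229 to 68166166 (7.08 Mb), crossed 18q22.1, which had no peak and in which the RefSeq table places the serpin genes SERPINB8 and SERPINB10.

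Pale bands were denser in peaks than the darkest ones on all 3 chromosomes. Giemsa-negative bands had 5.95 peaks per Mb on chromosome 4, 4.90 on chromosome 13 and 4.07 on chromosome 18. The darkest class (gpos100) had 0.146, 0.619 and 0.310. The lighter stained classes gpos25 and gpos50 had 4.20 and 4.44 on chromosome 13, close to its pale bands. They had 3.53 and 2.43 on chromosome 18, and 1.05 and 1.21 on chromosome 4. The 3 terminal bands are Giemsa-negative and weigh much in the pale-band densities. 4p16.3 held 227 of the 459 pale-band peaks of its chromosome, 13q34 held 86 of 227 and 18q23 held 48 of 146. Pooled, the pale class held 832 peaks, or 79.4% of those outside centromeric bands, and the darkest class 28 (2.67%) on 83.1 Mb. On the other 20 chromosomes both classes were denser, at 11.7 and 1.13 peaks per Mb, and gpos25 was denser than the pale class there, at 13.97. Of the 94 bands on the 3 chromosomes that are not centromeric, variable or stalk, 12 had no peak. Among them were 4 of the 14 bands of the darkest class and 5 of the 49 Giemsa-negative bands. Across these 94 bands, peaks per Mb and protein-coding genes per Mb had a Spearman correlation of 0.770 and a Pearson correlation of 0.737. Neighbouring bands share their chromosome and are not independent.

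The bands of blood cell genes differed widely in density. The median over all 94 bands of the 3 chromosomes, those with few genes included, was 1.36 peaks per Mb. Bands with more genes tended to have more peaks, and no share for gene-bearing bands in general was taken. Counts above that median, here and below, are therefore no result about a class of genes. The 30 genes listed as transcription and chromatin factors of blood cells and leukemia lay in 21 bands, 12 of them above that median. The 21 bands had a median of 2.62. They ranged from 4p16.3 with NSD2 (50.4 per Mb) down to 13q31.3 (0.2) with MIR17HG, a listed microRNA host gene that is itself no factor gene. Between these lay 4p14 with KLF3, a Krüppel-like repressor (38 peaks, 7.04 per Mb), 13q14.2 with RB1, the retinoblastoma gene (23, 6.39), 4q35.1 with IRF2, an interferon regulatory factor (21, 5.38), and 4q24 with TET2, a DNA demethylase, and NFKB1 (8, 1.21). Growth factor receptor and signalling genes lay in 18 bands outside centromeric ones, 13 above the median (median 3.86). Among them FLT3, a receptor of myeloid progenitors, lies in 13q12.2 (10 peaks, 9.09 per Mb) and KIT, the stem cell factor receptor, in 4q12 (15, 2.21).

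Phagocyte and inflammation genes were placed in 19 bands, 13 above the median (median 4.17). The highest were 13q34 with LAMP1, 13q14.13 with LCP1 (19 peaks, 12.7 per Mb) and 13q12.3 with ALOX5AP (34, 10.3). The band of the chemokine genes CXCL8 and PF4, 4q13.3, had 8 peaks (1.38 per Mb). Housekeeping genes lay in 22 bands, 18 above the median (median 5.42). Cell cycle and cell death genes lay in 21, with 15 above (3.33). The 4 genes listed for PML bodies and SUMO, RNF4, USPL1, PIAS2 and SAP18, lay in 4, all above (8.34). SAP18 was counted as listed and is no established member of either class. Of the 4 bands of coagulation genes 1 lay above (0.679): 13q34, against 4q31.3 with the fibrinogen genes FGA and FGB (5 peaks, 1.11 per Mb).

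Off-lineage genes, of neurons, liver, epithelium and lymphocytes, lay in 15 bands, 5 above the median (median 1.23). 18q23 with MBP had 9.64 peaks per Mb, 4q13.3 with ALB, the gene of serum albumin, had 1.38, and 13q21.32 with the protocadherin gene PCDH9 had none. A band holds many genes, several lists share bands, and no peak is assigned to a gene by these counts.

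At the 32 sampled starts the values reach single genes. A peak within 2 kb of a TSS was found for 12 (37.5%, 95% exact binomial interval 21.1 to 56.3%): 3 of 12 on chromosome 4, 7 of 11 on chromosome 13 and 2 of 9 on chromosome 18. The intervals of the 3 chromosomes overlap, at 5.49 to 57.2%, 30.8 to 89.1% and 2.81 to 60.01%. The models are software examples and no random draw of genes, so the share is no estimate for the chromosomes.

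Peaks over a TSS were of middling strength. The highest was that of USPL1 at chr13:31191101-31192544, with a total of 25766 and a maximum of 60 (rank 2435 of the list). DLEU1, in the 13q14 region often deleted in lymphoid leukemia, followed at chr13:50655621-50657034 with 17238 and 34. FNDC3A, a fibronectin type III domain gene, had 11881, SLC39A8 had 11411, and USO1, a vesicle tethering factor of the Golgi, had 11064. SKA3, a kinetochore protein gene, had 8657, C4orf46 had 8196, and ERCC5, an endonuclease gene of nucleotide excision repair, had 6554. CHAMP1, a chromosome alignment gene in 13q34, had 5147, and LOC101928764, a long noncoding RNA gene, had 3756. POLI, a translesion DNA polymerase gene, had 2796, close to the lowest total of any peak in the list (2577). These 11 peaks lay over the start itself. The peak of TSHZ1, a zinc finger gene, lay 1100 bp away, with 3228.

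The other 20 genes had their nearest peak farther off. For 12 it was more than 100 kb away, among them TLR2, a receptor for bacterial lipoproteins (217177 bp), IL21 (111269 bp), PF4, platelet factor 4 (273872 bp), and SERPINB13 and SERPINB4 (164348 and 220608 bp). The farthest were ANKRD50 (1095154 bp) and CCDC102B (1700850 bp). NFATC1 had no TSS peak in the model used (21178 bp away) and 3 peaks within the gene, with a summed signal of 16704. ARHGEF7, an exchange factor for Rac in 13q34, had its nearest peak 199010 bp away, and that peak was the seventh strongest of chromosome 13 (chr13:111566434-111567956, total 51729).

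Peak for peak, the members differed little from others in signal. The median total was 6114 on chromosome 4 (interquartile range 3845.5 to 11973), 6096 on chromosome 13 (3851 to 11432) and 6046.5 on chromosome 18 (3694 to 11107). Over the other 20 chromosomes the pooled median was 6501.5 (3753 to 14020.5), so the difference lay in the upper part. The third quartile was below the lowest of the other 20 chromosomes (12012) on all 3. A share of 7.495% of the members (79 of 1054, 95% exact binomial interval 5.98 to 9.25%) reached the top 10% of the list, above a total of 29695. That share was 8.23% on chromosome 4, 8.20% on chromosome 13 and 4.46% on chromosome 18, the lowest of the 23 chromosomes.

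Peaks were longer on chromosome 4 than on the other pair. The median peak was 904 bp on chromosome 4, 824 bp on chromosome 13 and 803 bp on chromosome 18, the last being the lowest of the 23 chromosomes. Peaks over 2 kb numbered 68 on chromosome 4 (12.4%), 14 on chromosome 13 (4.59%) and 9 on chromosome 18 (4.46%), and the other 20 chromosomes ranged from 7.41% to 15.3%. Peaks of the terminal bands were longer than the rest of their chromosomes, with medians of 1056 against 833 bp for 4p16.3, 894 against 807 bp for 13q34 and 1034 against 768 bp for 18q23. In total signal 4p16.3 did not stand above its chromosome (medians 6050 against 6155.5), while 13q34 (6524 against 5946) and 18q23 (8092 against 5622.5) had higher medians.

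Peaks in centromeric bands were few. 4p11 held 4, between 48271903 and 48833583 with totals of 5675 to 13040, and 18q11.1 held 2, with 11330 and 3029.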

How the data were processed

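CUT&Tag with a PML-RARA antibody was done on 2 replicates of NB4 cells, and the labels do not say whether they were separate cultures. Trimmomatic, Bowtie2, SAMtools, bedtools and SEACR are named with hg19 in the submitters' processing notes; versions, threshold, control and way of merging were not given in the sources used here. Each peak in the authors' deposited list has 2 values of signal, read here as total and maximum coverage signal because the former exceeds the length in bp and never exceeds length times maximum. Starts are printed as listed and may count from 0. The depth is unknown.

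Runs, bins, bands and stretches were computed with Python 3.11.15 and pandas 2.3.3, and checked on simulated peaks. Bands came from circlize 0.4.16, lengths from GenomeInfoDb 1.38.1, and 32 gene models from pyranges 0.1.4 and GenomicFeatures 1.54.1. The pyranges file names no build; 6 of its 7 haplotype names occur in the sample labelled hg19. RefSeq genes on GRCh38 were placed in bands of the same name, where an edge may fall differently. The members, 8 gene lists (172 genes) and rule were chosen with earlier results of these data known. Genes named are the sampled ones. Also named are listed genes in the bands of the 5 strongest peaks, 3 fullest bins and 3 largest runs of a chromosome. Where such a band holds several listed genes, only some may be named. Per list, 3 members in the densest bands and those in bands without a peak are named. The other genes named (LEF1, RPL34, MIR17HG, IRF2, TET2, NFKB1, RB1, KLF3, KIT, FLT3, CXCL8, FGA, FGB, ALB) were picked after their values were seen, as were the terminal bands.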

Additional observations from a re-analysis of the deposited data

How the results depend on the processing

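Of 62 values under other settings for 25 results, 41 stayed within 1.5 times the main value or, for shares, within its binomial interval, and 21 moved. The share of peaks in runs moved with its definition. On chromosomes 4, 13 and 18 it was 48.6%, 33.8% and 34.2% with gaps of at most 5 kb, 64.5%, 51.1% and 53.0% with 20 kb, and 40.4%, 23.9% and 36.1% for runs of at least 3 peaks. With peaks within 1 kb merged it was 40.1% on chromosome 4 and 32.7% on chromosome 13, and without the lower quartile of total signal 31.2% on chromosome 13. The fullest 1 Mb bin had 55 peaks on chromosome 4 after merging, 28 on chromosome 13 without the lower quartile and 16 on chromosome 18 with bins shifted by 500 kb. The longest stretch on chromosome 13 was 20.2 Mb with chromosome ends kept, where it takes in the unassembled short arm. After merging, 4p16.3 held 33.1% of the peaks of chromosome 4; the settings for terminal bands were chosen after seeing the data. Ranked by maximum, 6 of the 10 strongest sites stayed on chromosome 4 and 6 on chromosome 13; by signal per base, 3 stayed on each. The causes were not tested beyond what each setting changes by construction. No replicate could be left out because the list is merged, and no paired analysis was possible because there is 1 group.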
